A study of Homo sapiens with 2 samples.

Results

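The genes of MHC class I antigen presentation were examined in H2228 cells with and without interleukin 4 (IL4). H2228 cells are an established human line of lung adenocarcinoma with the EML4-ALK fusion, in its variant 3 form. The 10 genes were chosen by name: the class I chain genes HLA-E, HLA-F and B2M, the peptide transport genes TAP1, TAP2 and TAPBP, the immunoproteasome genes PSMB8, PSMB9 and PSMB10, and NLRC5. All 10 were measured, by 21 probe sets that the array annotation assigns to a single gene, among 19775 genes in all. The design text of the series states an IL4 concentration of 100 ng/mL and a treatment time of 30 min. RNA from the untreated culture and from the IL4 culture was hybridized to 1 Affymetrix U133 Plus 2.0 array each. The sample labels also mention transfections with EML4-ALK plasmids, siRNAs or negative controls for 48 h and do not say whether these cultures received them. No replicate array exists, so no test was possible and every difference below is between 2 arrays.

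MHC class I molecules display peptides of intracellular proteins to CD8+ T cells and natural killer cells. The proteasome cuts proteins into peptides, the TAP1-TAP2 transporter carries the peptides into the endoplasmic reticulum, tapasin (TAPBP) helps to load them, and the loaded heavy chain reaches the cell surface together with beta-2-microglobulin (B2M). Interferons raise most of these genes, and NLRC5 is the transactivator that binds class I promoters together with the RFX factors.

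Short stretches of the promoters of 6 of the genes are shown first, because they hold the core of the interferon-stimulated response element (ISRE), the DNA element through which interferon regulatory factors act. The stretches come from RefSeq (build GRCh38.p14), lie before the transcription start, read 5′ to 3′ on the strand of the gene, and have each match in capitals. A match is GAAA, any 2 bases and GAAA again, in either orientation.
HLA-F (chr6:29723263-29723302, + strand): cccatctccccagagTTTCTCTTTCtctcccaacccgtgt
B2M (chr15:44711358-44711403, + strand): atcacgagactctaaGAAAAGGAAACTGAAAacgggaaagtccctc
TAP1 (chr6:32853808-32853853, - strand): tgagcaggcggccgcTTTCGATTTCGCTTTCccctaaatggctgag
TAP2 (chr6:32838773-32838812, - strand): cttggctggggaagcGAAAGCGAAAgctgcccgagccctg
TAPBP (chr6:33314079-33314113, - strand): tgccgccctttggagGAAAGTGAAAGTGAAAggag
PSMB10 (chr16:67936851-67936886, - strand): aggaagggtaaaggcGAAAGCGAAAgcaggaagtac
B2M, TAP1 and TAPBP each held 2 overlapping matches. Promoter sequences, from 250 bases before to 50 bases after a start, were found for 8 of the 10 genes, and for HLA-E and NLRC5 none was found. TAP1 and PSMB8 have 2 starts each, which makes 10 promoters. The motif lay in 7 of these 10, 1 for each gene but PSMB9, and in PSMB8 it spans the start. It lay in 3.57% of all 35116 promoters. A match is a description of the sequence and does not show that a factor binds there.

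The values are log2 expression values, so a log2 difference of 0.58 is a 1.5-fold difference, the level used here to count genes. Differences between the conditions were taken within a probe set only, since probes differ in brightness. The median over all probe sets is only a rough mark of level, and sums over genes weigh bright probe sets most. Over all genes the median log2 difference was 0, and 1275 genes (6.45%) had the same value on both arrays. The further probe sets of a gene give a check within the same arrays: in 6056 genes whose second probe set lay above the median level, the pair disagreed with a standard deviation of 0.25 in their log2 differences. This spread does not include the variation between cultures. Some markers of other cell types also lay above 5.03, which is the median over all probe sets, so that level does not show presence. None of the 8 markers of lung epithelium lay below it. Of them 1, CDH1, was at least 1.5-fold higher with IL4 and 1, NKX2-1, was at least 1.5-fold lower, at 7.88 in untreated cells and 6.91 with IL4.

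NLRC5 was the member past 1.5-fold, and the other 9 lay below that level in either direction. Of the 10 genes, 1 passed 1.5-fold upwards and 0 passed it downwards, against 3.21% and 4.39% of all genes. The median log2 difference of the 10 was 0.21, with 7 above 0 and 3 below 0, whereas 45.5% of all genes were above 0 and 48.1% below 0. All 10 lay at or above the 75th percentile of all probe sets. Among genes at that level 41.1% were above 0 and 58.2% below 0. By step of the pathway, the 3 peptide transport genes were all above 0, the class I chains lay between -0.045 and 0.23, and 2 of the 3 immunoproteasome genes were below 0.

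**Figure D1:**
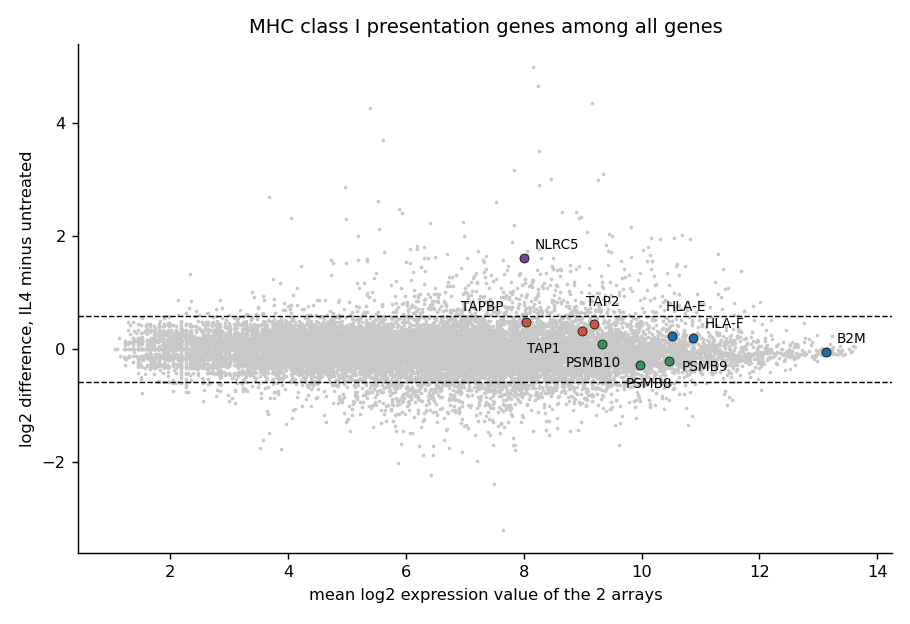
Change of each gene with IL4 as a log2 difference (y axis, IL4 minus untreated) plotted over its mean log2 value (x axis), 1 grey point per gene and 1 coloured point for each of the 10 class I presentation genes (blue, class I chains; red, peptide transport; green, immunoproteasome; purple, NLRC5). Dashed lines mark 1.5-fold; NLRC5 lies at 1.61, and the other 9 lie between -0.28 and 0.49.

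NLRC5 had a log2 value of 7.20 in untreated cells and 8.81 with IL4. The transcript was thus 3.05-fold higher with IL4, a log2 difference of 1.61. Both values were above that median. Of the 19775 genes, 65 (0.329%) had a larger increase. A single probe set, 226474_at, measured NLRC5, so no further probe set could be compared. In a culture measured as a whole, a change in the share of cells that express a gene and a change in its RNA per cell cannot be told apart. NLRC5 is also abundant in leukocytes, so leukocyte markers were set beside it. None of the 9 markers analysed passed 1.5-fold, against 3.21% of all genes higher and 4.39% lower. On average 6 of the markers lay below the median level. The log2 of the summed values of all 9 was 7.99 in untreated cells and 8.05 with IL4. Of the 9, 5 were above 0 and 2 below 0, with LYZ and CD2 at the largest differences, 0.32 and 0.24, and both below the median level. PTPRC, the pan-leukocyte marker CD45, was added as the defining marker and was at 2.50 and 2.37. The 3 markers at or above the median level were CD79A, CD3E and ITGAM. Their values were 5.88 and 5.96, 5.56 and 5.59, and 5.19 on both arrays. Both cultures are labelled as H2228 cells, and whether leukocytes bear on the NLRC5 value was not tested.

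The 3 peptide transport genes were higher with IL4 by less than 1.5-fold each. TAPBP, which bridges TAP and the empty class I molecule, had values of 7.80 in untreated cells and 8.28 with IL4, a log2 difference of 0.49 or 1.40-fold. TAP2, one chain of the transporter, had 8.96 and 9.41, a difference of 0.45 or 1.36-fold. TAP1, the partner chain, had 8.82 and 9.14, a difference of 0.31 or 1.24-fold. The IL4 array was the higher one for each of them. Their 8 probe sets were all above 0, from 0.17 to 0.49. The further TAPBP probe sets gave 0.38 and 0.31, and the further TAP2 probe sets gave 0.24, 0.34 and 0.17, the last from a probe set below the median level. TAP1 had 1 probe set. Differences larger than those of TAPBP, TAP2 and TAP1 were seen in 4.71%, 5.46% and 10.5% of all genes.

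**Figure D2:**
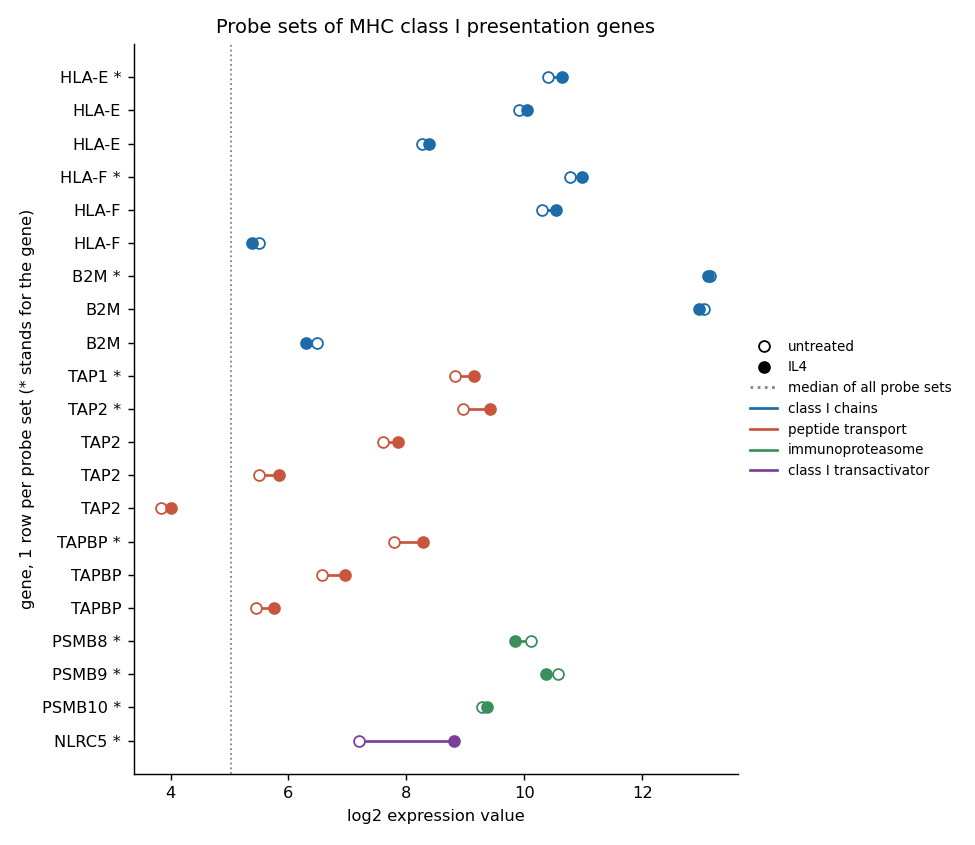
Log2 expression values (x axis) of the 21 probe sets of the 10 genes (rows), with open circles for the untreated array, filled circles for the IL4 array, colours for the groups and an asterisk at the probe set that stands for its gene. The filled circle lies to the right for all 8 peptide transport probe sets, while NLRC5 spans 7.20 to 8.81; positions are to be compared within a row, and the dotted line is the median of all probe sets, 5.03.

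The class I chains differed little between the arrays. HLA-E, a nonclassical heavy chain recognized by natural killer cell receptors, had values of 10.41 in untreated cells and 10.64 with IL4, a log2 difference of 0.23. Its further probe sets gave 0.14 and 0.12. HLA-F, another nonclassical heavy chain, had values of 10.78 and 10.97, a difference of 0.19. The IL4 array was the higher one for both heavy chains, but not in every probe set of HLA-F. The probe sets of HLA-F at 0.19 and 0.22 are of a design that can bind related transcripts, and the third, 221978_at, which is not, had 5.50 and 5.38, a difference of -0.12. Class I heavy chains are close in sequence, so the values of HLA-E and HLA-F from probe sets of the first kind may include RNA of other class I genes. B2M, the light chain shared by all class I molecules, had values of 13.15 in untreated cells and 13.11 with IL4, a difference of -0.045. All 3 of its probe sets were below 0, from -0.19 to -0.045. Over all genes, 15.9% had a smaller difference in size than B2M.

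The immunoproteasome genes did not share a direction. Each encodes a catalytic subunit that replaces a constitutive one, which alters the peptides that the proteasome releases. PSMB8 had values of 10.11 in untreated cells and 9.83 with IL4, a log2 difference of -0.28 or 1.21-fold lower. PSMB9 had 10.57 and 10.37, a difference of -0.20 or 1.15-fold lower. PSMB10 had 9.28 and 9.38, a difference of 0.091 or 1.07-fold higher. The IL4 array was thus lower for PSMB8 and PSMB9 and higher for PSMB10. Each of the 3 was measured by 1 probe set. The constitutive subunits that they replace, PSMB5, PSMB6 and PSMB7, had log2 differences of -0.19, -0.26 and -0.040. Taken pair by pair, the immunoproteasome subunit minus its constitutive counterpart was -0.084 for PSMB8 and PSMB5, 0.059 for PSMB9 and PSMB6, and 0.13 for PSMB10 and PSMB7. A second probe set of PSMB7 gave 0.67, so the last pair depends on the probe set.

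TAP2, PSMB8, TAP1 and PSMB9 lie next to each other on chromosome 6, within the class II part of the MHC. In this order along the chromosome, with an antisense gene of PSMB8 between PSMB8 and TAP1, their log2 differences were 0.45, -0.28, 0.31 and -0.20, so that the transporter genes and the immunoproteasome genes alternated in sign. TAP1 and PSMB9 face away from each other, and the upstream start of TAP1 lies 488 bases from the start of PSMB9 in GRCh38.p14. The 250 bases before each start are shown because both genes are read from the stretch between them, with ISRE cores and matches to the NF-kB motif in capitals. The ISRE cores of TAP1 lie between both starts but outside the window of PSMB9, so the lack of capitals in PSMB9 reflects where the window ends. Whether any motif bears on the values was not tested.
TAP1 (chr6:32853705-32853954, - strand): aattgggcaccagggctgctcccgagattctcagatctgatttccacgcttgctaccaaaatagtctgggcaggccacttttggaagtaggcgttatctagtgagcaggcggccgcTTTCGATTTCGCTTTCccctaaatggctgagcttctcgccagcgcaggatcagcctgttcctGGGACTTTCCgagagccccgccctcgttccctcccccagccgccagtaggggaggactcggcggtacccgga
PSMB9 (chr6:32853942-32854191, + strand): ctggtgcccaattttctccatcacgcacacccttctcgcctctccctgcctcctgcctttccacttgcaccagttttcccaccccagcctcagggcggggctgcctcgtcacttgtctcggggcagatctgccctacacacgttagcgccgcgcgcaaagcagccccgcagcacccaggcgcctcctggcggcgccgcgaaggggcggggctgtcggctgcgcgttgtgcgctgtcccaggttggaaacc
The NF-kB motif, searched on both strands, was also found in the promoters of B2M and TAPBP, that is in 3 of 10 promoters, against 11.3% of all promoters. Its matches did not overlap the ISRE cores. The spaced palindrome bound by STAT6, the factor activated by IL4, was searched as TTC, any 4 bases and GAA, which reads the same on both strands. It was found in HLA-F and in 1 of the 2 promoters of PSMB8, that is in 2 of 10 promoters, against 6.44% of all promoters, and the HLA-F match is shown in capitals.
HLA-F (chr6:29723351-29723390, + strand): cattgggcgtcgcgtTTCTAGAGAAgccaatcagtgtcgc
No other motif searched overlaps this match. The log2 differences of HLA-F and PSMB8 were 0.19 and -0.28. Of the other motifs searched on both strands, CCAAT, the box bound by the NFY factors, lay in 4 of 10 promoters, against 34.6% of all promoters. The GAS element bound by STAT dimers (TTC, any 3 bases, GAA) lay in 2 of 10, against 7.66%, and the cyclic AMP response element core TGACGT lay in 1 of 10, against 7.98%.

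The remaining steps of the class I pathway showed no gene past 1.5-fold by the probe set that stands for it. Of all genes, 3.21% were at least 1.5-fold higher and 4.39% at least 1.5-fold lower. A count of 0 in lists this small is near these shares. Of 13 other class I and class I-like chain genes, 0 passed in either direction, and the median log2 difference was 0.088. The 2 with the largest differences were ULBP2, a ligand of the NKG2D receptor of natural killer cells, at 0.40, and HFE, a regulator of iron uptake, at -0.32. HLA-B, HLA-C and HLA-G, named in addition because of their likeness in sequence to HLA-E and HLA-F, had differences of 0.099, 0.088 and 0.090. All of their probe sets are of the design that can bind related transcripts. Their values may therefore include RNA of other class I genes and are not separate measurements.
Of 9 genes of endoplasmic reticulum chaperones and trimming peptidases, 7 were above 0 and 0 passed 1.5-fold, with a median of 0.12. ERAP2 and ERAP1, the aminopeptidases that trim peptides to the length class I molecules bind, had differences of -0.47 and 0.26. Their probe sets did not share a sign, with 1 of 5 above 0 for ERAP2 and 3 of 5 for ERAP1. The lowest ERAP2 probe set was at -0.68, which is past 1.5-fold. Of 6 cytosolic peptidases, 4 were below 0, with a median of -0.14. Thimet oligopeptidase, THOP1, which destroys peptides, had -0.28, and the puromycin-sensitive aminopeptidase NPEPPS had 0.27.
Of 13 genes of the constitutive proteasome core, 12 were below 0, with a median of -0.13 and a range from -0.31 to 0.11. Genes at this level were also more often below 0 than above: among genes at or above the 75th percentile of all probe sets, 58.2% were below 0 and 41.1% above 0. PSMA4 and PSMA2, subunits of the outer ring, had the largest differences at -0.31 and -0.27. Of 8 proteasome activator and assembly genes, 6 were below 0, with a median of -0.15, and the assembly chaperones PSMG2 and PSMG1 had -0.31 and -0.25. PSMB8, PSMB9 and PSMB10 thus all lay within the range of the constitutive core.

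**Figure D3:**
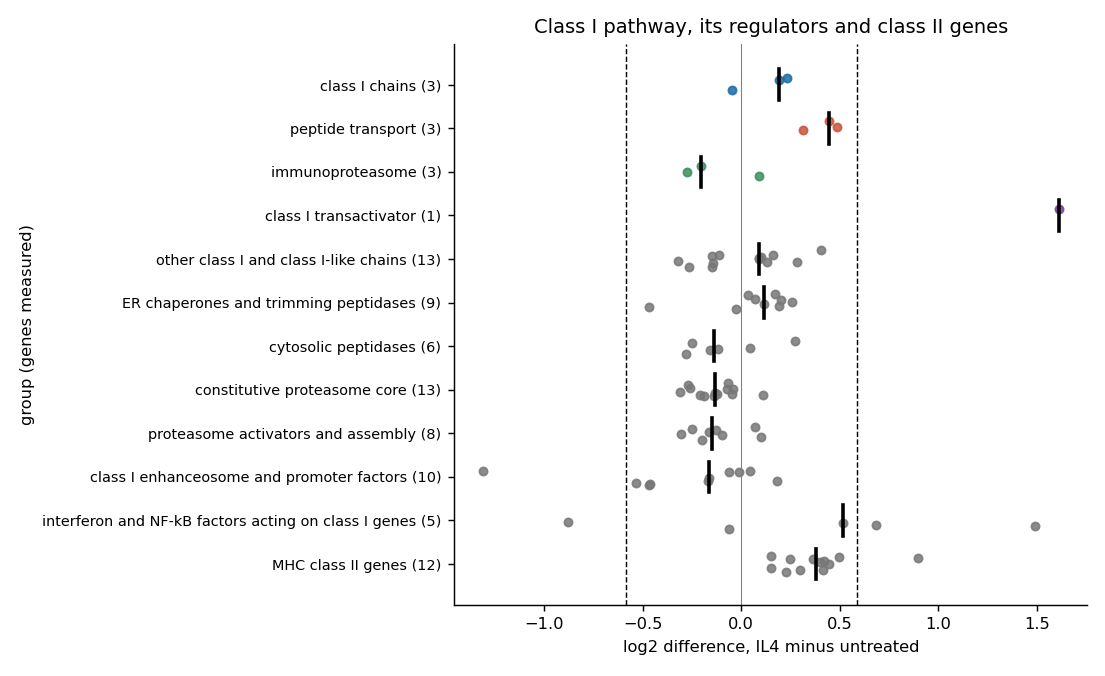
Log2 difference, IL4 minus untreated (x axis), for each measured gene (points) of the 4 groups of class I presentation genes and of 8 further groups (rows), spread vertically within its row. Medians are drawn as black bars and dashed lines mark 1.5-fold; all 12 class II genes lie above 0 with a median of 0.38, and 12 of 13 genes of the constitutive proteasome core lie below 0.

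Among the factors that act on class I promoters, the values went in opposite directions. RFXAP, a subunit of the RFX complex that NLRC5 and the class II transactivator CIITA need, was the 1 gene of 10 enhanceosome and promoter factors past 1.5-fold, and it was lower. It had values of 6.24 in untreated cells and 4.93 with IL4, the second below the median of all probe sets, a log2 difference of -1.31. A second probe set of RFXAP gave 0.068. The median of these 10 genes was -0.17, and 8 of them were below 0. Of all genes, 4.39% were at least 1.5-fold lower and 48.1% were below 0. Among genes at or above the 75th percentile of all probe sets, where most of the 10 lay, 58.2% were below 0.
Of 7 listed genes of interferon and NF-kB factors, 5 were analysed. Among these 5, 2 were at least 1.5-fold higher and 1 was at least 1.5-fold lower, against 3.21% and 4.39% of all genes. NFKB1, the precursor of the p50 subunit, had values of 8.05 in untreated cells and 9.54 with IL4 and was 2.81-fold higher. RELA, the p65 subunit, had 8.03 and 8.72 and was 1.61-fold higher. IRF2, which competes with IRF1 for the ISRE, had 8.52 and 7.64 and was 1.84-fold lower. NFKB1 and IRF2 were each measured by 1 probe set. IRF1, the activator of TAP1, PSMB9 and other interferon-induced genes, had 7.74 and 8.26, a log2 difference of 0.52 that lay below 1.5-fold.

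MHC class II genes, which present peptides to CD4+ T cells and share the RFX promoter module, were measured for comparison. All 12 were above 0, with a median log2 difference of 0.38 and a range from 0.15 to 0.90, and 30 of their 33 probe sets were above 0. Of all genes, 45.5% were above 0 and 3.21% were at least 1.5-fold higher. Among genes at or above the 75th percentile of all probe sets, where most of the 12 lay, 41.1% were above 0. HLA-DQA1 was the 1 class II gene past 1.5-fold. It had values of 6.80 in untreated cells and 7.69 with IL4, and was 1.86-fold higher. Of its 3 probe sets, 2 were above 0. CIITA, the class II counterpart of NLRC5, had values of 5.03 and 5.18, close to the median of all probe sets, and a difference of 0.15. NLRC5 and CIITA therefore differed in size on these arrays, by 1.61 against 0.15. The peptide transport genes, from 0.31 to 0.49, lay within the range of the class II genes. With 1 array per condition, none of these differences between groups could be tested.

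Other settings left NLRC5 as the member past 1.5-fold. Its log2 difference ran from 1.57 to 1.67 over 7 alternatives. Only the loess correction, quantile normalization and centring on the median could change it. NLRC5 has 1 probe set, which the other settings all keep, so they returned the same 1.61. Those of TAP1, TAP2 and TAPBP ran from 0.27 to 0.54 and stayed above 0. Those of PSMB8 and PSMB9 stayed below 0. B2M turned to 0.012 with a loess correction, and HLA-F was at -0.12 with the probe sets specific to 1 transcript.

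**Figure D4:**
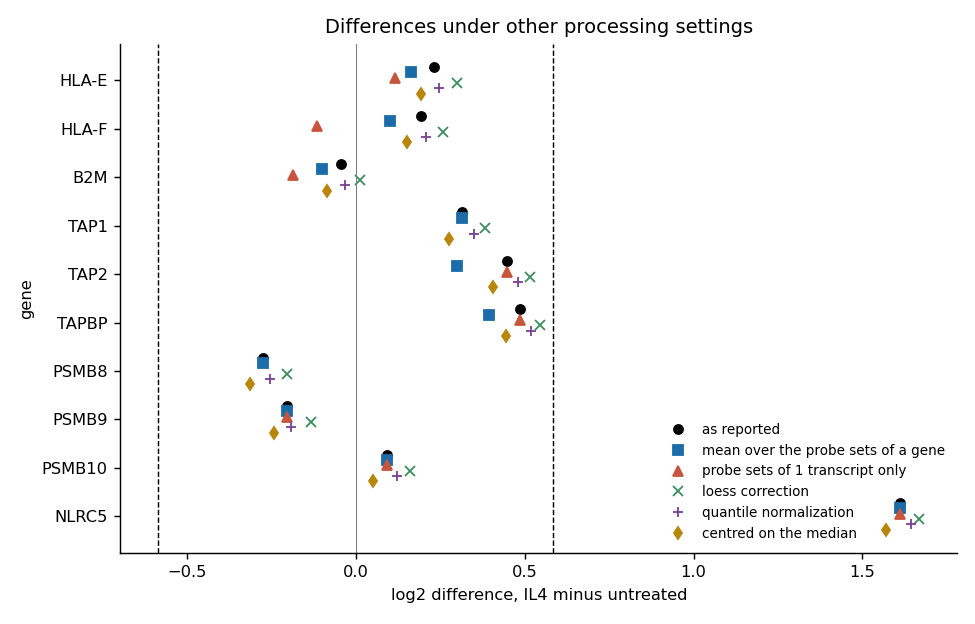
Log2 difference, IL4 minus untreated (x axis), for the 10 class I presentation genes (rows) as reported (black circles) and under 5 other settings (coloured symbols), with dashed lines at 1.5-fold. NLRC5 lies between 1.57 and 1.67 under every setting drawn, and the symbols of HLA-F and B2M fall on both sides of 0; TAP1 and PSMB8 have no triangle because no probe set was left.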

How the data were processed

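RNA of untreated and IL4-treated H2228 cells was measured on Affymetrix U133 Plus 2.0 arrays, 1 for each condition. The deposited values are log2 expression values per probe set. According to the submitters' processing notes they come from RMA (version not given), and the methods name GCOS software for raw data. The values were taken as they stand, since no scanner files were used here. Probe sets were named through the array annotation: of 54675, 41097 had 1 gene and 1801 several, and 41043 were updated through their gene number in RefSeq (GRCh38.p14). Each gene was represented by its brightest probe set, by the mean over both arrays, and differences are IL4 minus untreated.

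With 1 array per condition there was no test, p-value or standard error, and there was no replicate to leave out. Precision is limited by the number of arrays. Genes were counted at 1.5-fold. The members, gene lists and motifs were chosen with earlier results of these data known. All 10 members are named, and from each further list up to 4 genes past 1.5-fold in each direction, or the 2 with the largest differences where none passed, besides PSMB5, PSMB6, PSMB7, IRF1 and CIITA. Genes named beyond this rule are PTPRC, CD79A, CD3E, ITGAM, COL1A1, PECAM1, CDH1, NKX2-1, HLA-B, HLA-C, HLA-G and those of the other observations. The markers were 8 genes of lung epithelium, 9 of leukocytes, 6 of fibroblasts and 5 of endothelium. Of the fibroblast markers 1 and of the endothelial markers 0 passed 1.5-fold, and 5 and 4 lay below the median level. The fibroblast marker COL1A1 and the endothelial marker PECAM1 lay above that level, at 10.82 and 5.96 in untreated cells.

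Alternatives were counting at 2-fold, a floor at the median or at the 75th percentile, the mean over probe sets, probe sets of 1 transcript only, a loess correction (fraction 0.3), quantile normalization and centring on the median. The counting code was checked on simulated data with planted changes. The simulated noise was smaller than the spread between probe sets, so this check does not measure the error of counts at 1.5-fold. Python 3.11.15, numpy 2.4.6, pandas 2.3.3, statsmodels 0.14.6 and matplotlib 3.10.9 were used.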

Additional observations from a re-analysis of the deposited data

How the results depend on the processing

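The number of class I presentation genes at least 1.5-fold higher (1) and lower (0) was the same under each alternative, the 2-fold level included, and their median log2 difference ran from 0.10 to 0.28. A value was regarded as moved where it changed by more than 0.25, the standard deviation between probe sets of a gene. With probe sets of 1 transcript only, HLA-F moved from 0.19 to -0.12, and the median of the interferon and NF-kB factors moved from 0.52 to 0.23, as RELA was left out and 4 of 5 genes remained. This setting had no value for TAP1 and PSMB8. It also turned the medians of the other class I chains (-0.13) and of the chaperones (-0.0012), and the loess correction turned B2M (0.012). Both floors left all 10 genes in. The scalings shifted the median of all genes by -0.040 to -0.014. No paired analysis was possible because each condition has 1 array. Differences under 1.5-fold in genes with 1 probe set (TAP1, PSMB8, PSMB9 and PSMB10) have no second measurement here.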

Other observations

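The following genes were chosen after values of these data had been seen. NLRC5 belongs to the NLR family of intracellular receptors, and 11 other genes of this family, CIITA included, were looked up. None passed 1.5-fold by the probe set that stands for the gene. Of all genes, 3.21% were at least 1.5-fold higher and 4.39% at least 1.5-fold lower. A count of 0 among 11 genes is near these shares and does not set NLRC5 apart within its family. The log2 differences of the 11 ran from -0.27 to 0.33 with a median of -0.026. The largest differences were those of NLRP3, the sensor of the inflammasome, at 0.33, and NLRC3, at -0.27, both below the median level of all probe sets. Of the 11, 5 were above 0 and 6 below 0. In all, 6 of them lay below the median level, where a difference is harder to measure, while NLRC5 lay above it on both arrays.

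PSMB8-AS1, the antisense neighbour of PSMB8, was at 7.90 in untreated cells and 7.07 with IL4, 1.77-fold lower, and a second probe set gave -0.075. HLA-F-AS1 had a log2 difference of -0.32, with a second probe set at 0.19. The pseudogene HLA-J had 0.10. BRD2, which lies between HLA-DMA and HLA-DOA and is not an antigen presentation gene, had 0.25.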
